A study of Homo sapiens with 2 samples.

Results

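The genes described here are 36 genes of glycolysis and of the response to low oxygen, taken by name from the 20136 protein-coding genes of the annotation, and examined for binding of LSD1 (KDM1A, lysine-specific demethylase 1) in prostate cancer cells. For each gene the peaks of the LSD1 peak list that reached within 1 kb of any annotated transcription start site (TSS) were collected, along with the share of the gene body that lay under peaks. PC-3M-luc cells were used, a human prostate carcinoma line that carries luciferase and descends from PC-3M, a metastatic variant of the androgen-independent line PC-3. Their genotype label is Control. They were kept in serum-supplemented medium, and the labels name neither a drug nor a low-oxygen treatment. The LSD1 arm was 1 ChIP-seq library (DNA bound by LSD1, pulled down with an antibody and sequenced), and the background was 1 library of input DNA from the same cells. The authors deposited a single list of 20110 peaks on hg19. With 1 library per arm there was no replicate check and no test was possible, so all comparisons below are descriptions of this list. Binding says nothing of expression, so the identity of the line was not checked by marker genes, and copy number was not analysed here. Read depth is not known, and where no peak is listed LSD1 may still have been present below the authors' threshold.

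Glycolysis splits glucose into pyruvate in a fixed chain of enzymes. When oxygen is short, prolyl hydroxylases of the EGLN family stop marking the factor HIF1A for destruction. HIF1A with its partner ARNT then binds a short hypoxia response element and raises glucose uptake, most glycolytic enzymes, lactate production, angiogenic signals and mitophagy. Many cancer cells run this programme in the presence of oxygen. LSD1 takes methyl groups off lysine 4 of histone H3 and works in complexes that act on chromatin at promoters and enhancers.

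The promoter sequences below are shown because they carry 4 or more copies of the core letters of the hypoxia response element and belong to members whose start site lay under an LSD1 peak, with ALDOC as the contrast without a peak. Each is the GRCh37 (hg19) reference from 250 bases before the TSS through the first 50 transcribed bases, 5′ to 3′ on the gene's strand. Capitals mark the cores ACGTG and GCGTG read on either strand, so that they also appear as CACGT and CACGC, and the palindrome CACGTG counts as 2 cores. LDHA lies on the plus strand at chr11:18415860-18416159, BNIP3 on the minus strand at chr10:133795378-133795677, DDIT4 on the plus strand at chr10:74033428-74033727, PGK1 on the plus strand at chrX:77359495-77359794, and ALDOC on the minus strand at chr17:26903864-26904163. ALDOC was picked after its values were seen.
LDHA: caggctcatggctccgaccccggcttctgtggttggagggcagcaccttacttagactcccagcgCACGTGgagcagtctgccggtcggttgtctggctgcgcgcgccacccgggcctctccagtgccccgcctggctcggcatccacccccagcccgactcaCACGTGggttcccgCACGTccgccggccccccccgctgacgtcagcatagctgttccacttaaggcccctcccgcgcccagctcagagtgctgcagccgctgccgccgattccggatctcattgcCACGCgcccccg
BNIP3: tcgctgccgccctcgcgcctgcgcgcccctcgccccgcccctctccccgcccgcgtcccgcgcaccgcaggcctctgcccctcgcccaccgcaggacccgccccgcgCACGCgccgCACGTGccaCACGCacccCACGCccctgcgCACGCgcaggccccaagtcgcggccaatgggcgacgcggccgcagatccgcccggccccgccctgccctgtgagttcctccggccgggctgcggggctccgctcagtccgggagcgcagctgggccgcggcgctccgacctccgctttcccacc
DDIT4: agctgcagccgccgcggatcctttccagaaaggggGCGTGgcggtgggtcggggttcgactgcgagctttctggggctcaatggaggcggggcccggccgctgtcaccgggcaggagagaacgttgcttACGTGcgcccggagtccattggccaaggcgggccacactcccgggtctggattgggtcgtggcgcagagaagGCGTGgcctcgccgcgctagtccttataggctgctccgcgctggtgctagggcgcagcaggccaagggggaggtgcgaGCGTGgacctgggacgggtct
PGK1: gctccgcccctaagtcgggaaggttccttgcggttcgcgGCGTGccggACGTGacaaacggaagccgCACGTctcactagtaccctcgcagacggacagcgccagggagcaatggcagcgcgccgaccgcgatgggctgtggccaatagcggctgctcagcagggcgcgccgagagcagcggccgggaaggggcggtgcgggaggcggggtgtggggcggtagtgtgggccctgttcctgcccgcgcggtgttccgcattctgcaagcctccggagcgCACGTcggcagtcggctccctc
ALDOC: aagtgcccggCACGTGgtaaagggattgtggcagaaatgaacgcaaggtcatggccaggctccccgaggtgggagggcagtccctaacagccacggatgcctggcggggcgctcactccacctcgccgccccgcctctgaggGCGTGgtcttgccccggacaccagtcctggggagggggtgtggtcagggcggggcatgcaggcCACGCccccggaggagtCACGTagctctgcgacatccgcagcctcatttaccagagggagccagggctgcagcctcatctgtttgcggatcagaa

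LDHA and BNIP3 held 6 cores each, ALDOC 5, and DDIT4 and PGK1 4 each. BNIP3L, which also held 4, is not shown. In LDHA, with the TSS as position 1, matches began at -185, -184, -87, -86, -73 and 39, and in PGK1 at -211, -202, -183 and 29. The core count of ALDOC thus lay between those of the printed members with a peak, and no peak touched the ALDOC gene. The promoter peaks of those members ranged in score, with 3100 at DDIT4, 2397 at LDHA, 606 at PGK1 and 328 at BNIP3.

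LSD1 peaks lay at the promoters of most of these genes. Of the 36 members, 31 had a promoter peak and 5 had none, against 58.2% of all protein-coding genes (11722 of 20136, exact 95% binomial interval 57.5 to 58.9, counting error only). The members without one were SLC2A3, PFKP, ALDOC, ENO2 and CA9. The peaks sat on the main start sites, as at most coding genes with a promoter peak. Within 1 kb of the canonical TSS alone, the same 31 of 36 members had a peak, against 55.1% of all coding genes (11086 of 20134). At 27 of the 31 the highest-scoring promoter peak covered that site, as at 10106 of the 11722 coding genes with a promoter peak. Members had more annotated start sites than other genes, with a median of 10 against 5.

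Promoter composition moved with this result. LSD1 peaks in the list favour CpG-rich promoters, and 30 of the 36 member promoters were of that kind, defined in the 1000 bp around the canonical TSS by over 55% GC and over 0.65 of the CpG count expected from base composition. Among those 30, 28 had a promoter peak, against 78.7% of all CpG-rich promoters. Among the 6 CpG-poor members, 3 had one, against 32.1%. Median promoter GC content was 67.6% in members and 61.3% in all coding genes. The part of promoter composition in the members' count was not tested beyond this division.

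**Figure D1:**
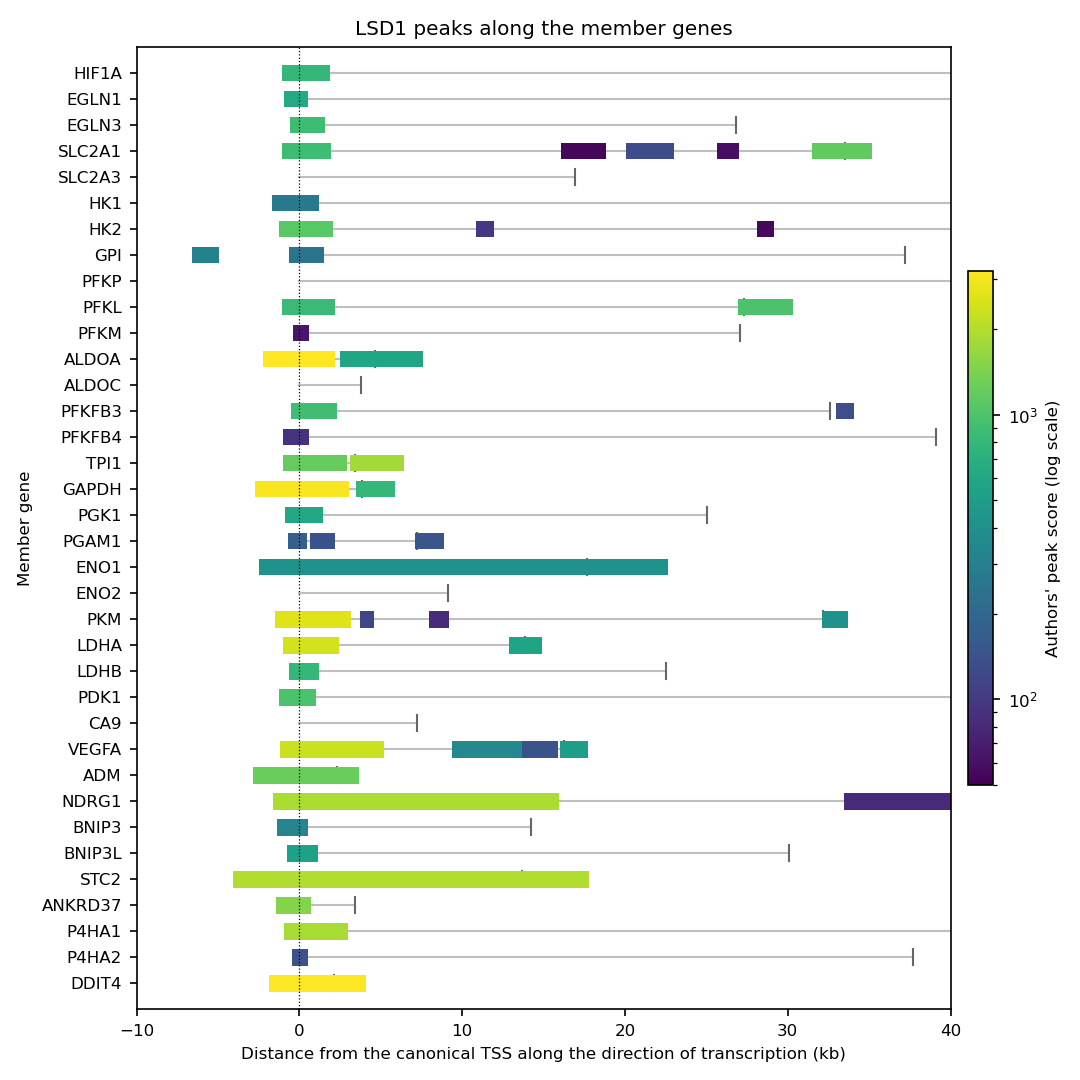
LSD1 peaks along the 36 member genes, each aligned at its canonical TSS (0 kb, dotted line) and read in the direction of transcription. Grey lines are the canonical transcripts with a tick at their end where it falls within 40 kb, boxes are peaks coloured by the authors' score on a log scale, and peaks beyond the axis are not drawn. Most boxes sit on the dotted line, 5 genes carry no box, and ENO1, NDRG1 and STC2 lie under long ones.

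The members' peaks were also higher in score and wider than those of other genes. Each peak carries the authors' score, used here only for ranking within the list, in which it runs from 50 to 3226. Exactly 3100 was given to 206 peaks, that of DDIT4 among them, and 19 peaks lay above it. Order among scores of 3100 and above was therefore not read as a difference in binding. The highest-scoring promoter peak of a member had a median score of 877 (range 92.0 to 3163, 31 genes), against 480.0 over the 11722 coding genes with a promoter peak and 513 over the CpG-rich ones. A score of at least 1000 was reached at 13 of the 36 members, against 12.0% of all coding genes. With the canonical TSS alone the members were again 13, against 10.5%. Median width was 2925 bp in members and 1977 bp in all coding genes with a promoter peak. Where the peak covered the canonical TSS, it ran a median of 2080 bp into the gene and 1160 bp upstream in members, against 1002 bp and 871 bp in all coding genes. The peak reached further into the gene than upstream at 19 of 27 members and at 58.2% of 10106 coding genes. Score and width went together, with a Spearman rho of 0.73 across the 31 members and 0.68 across the 11722 genes, values from 1 library in which genes are not independent.

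**Figure D2:**
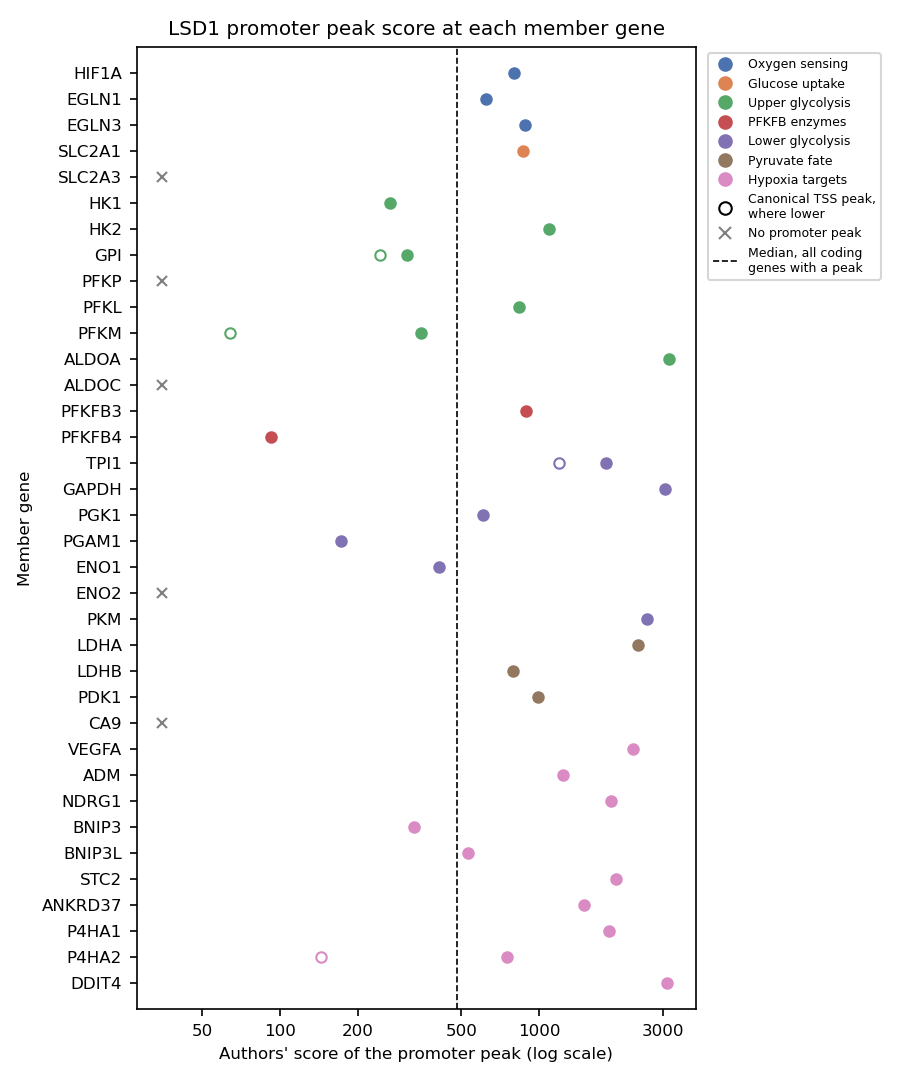
Authors' score of the highest-scoring promoter peak (filled circles, log axis) at each member gene, coloured by role. Open circles give the peak at the canonical TSS at GPI, PFKM, TPI1 and P4HA2, where it was lower, grey crosses stand for the 5 genes without a promoter peak and carry no value, and the dashed line is the median of 480.0 over all coding genes with a promoter peak.

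All 3 genes of oxygen sensing carried a promoter peak. EGLN3, a prolyl hydroxylase that is itself induced by hypoxia, had the highest score, 877, over its canonical TSS (hg19 chromosome 14, 34418734 to 34420832). HIF1A, the oxygen-regulated subunit, followed at 797 with a peak of 2925 bp (chromosome 14, 62161163 to 62164087), which also reached the start of the antisense transcript HIF1A-AS1. EGLN1, the main hydroxylase that marks HIF1A in normal oxygen, had a narrower peak of 1446 bp with a score of 619.8 (chromosome 1, 231557505 to 231558950). None of the 3 reached 1000. The annotated EGLN3 gene runs over 538548 bp because of distant alternative starts, and a second peak with a score of 673 sat at the far one (chromosome 14, 34930410 to 34932455), within 1 kb of a start site of SPTSSA.

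Among the transporter genes of glucose uptake, SLC2A1 had a promoter peak and SLC2A3 had none. SLC2A1, which encodes the ubiquitous glucose transporter GLUT1, had a promoter peak with a score of 865 (chromosome 1, 43422573 to 43425588) and 5 peaks over its length in all. The highest of them, at 1162, lay at its 3′ end and not at its promoter (chromosome 1, 43389332 to 43393052). SLC2A3, which encodes the high-affinity transporter GLUT3, had no peak in its annotated 99778 bp (chromosome 12, 8071826 to 8171603, minus strand). The peak nearest to its canonical TSS was 89864 bp away, with a score of 634. That peak lay 7044 bp beyond the upstream bound of the annotated gene. Its promoter was CpG-poor, with 43.7% GC.

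In the upper part of glycolysis, where glucose is phosphorylated and split, 6 of 8 genes had a promoter peak and the isozymes differed widely. ALDOA, the aldolase of muscle and of most proliferating cells, had the highest listed score of all members at 3163 (chromosome 16, 30074839 to 30079293, 4455 bp). Its place above the 3100 of DDIT4 was not read as a difference in binding. A second ALDOA peak with a score of 589 adjoined the first over the rest of the gene. ALDOC, the brain aldolase, had none (chromosome 17, 26900133 to 26903966, minus strand). Its nearest peak ended 1119 bp beyond the 3′ end of the gene, at PIGS. HK2, the hexokinase typical of tumours, scored 1086 (chromosome 2, 75059979 to 75063334), and HK1, the hexokinase of most normal tissues, 267 with a peak of 2912 bp. Both hexokinase promoters were thus bound, with HK2 at the 81.7th percentile and HK1 at the 28.3rd percentile of the scores of coding genes with a promoter peak.

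The phosphofructokinase genes, which encode the committed step, differed, from a promoter peak with a score of 831 to no peak. PFKL, the liver-type subunit, had a promoter peak with a score of 831 and a peak at its 3′ end with a score of 984. PFKM, the muscle-type subunit, scored 349 only at an upstream start site that lay within 1 kb of a SENP1 start, and 64.0 at its canonical TSS. PFKP, the platelet-type subunit, had no peak (chromosome 10, 3108525 to 3179910, plus strand), and the nearest one to its canonical TSS was 104340 bp away. Its promoter was CpG-rich, with 74.1% GC. GPI, glucose-6-phosphate isomerase, scored 308 at an upstream start and 242 at the canonical one. PFKFB3 and PFKFB4 make the fructose bisphosphate that activates phosphofructokinase, and both had a promoter peak. At PFKFB3 it scored 888 (chromosome 10, 6244369 to 6247233), as 1 of 8 peaks over the gene. At PFKFB4 it scored 92.0 (chromosome 3, 48593648 to 48595256), the lowest when each of the 31 bound members is represented by its highest-scoring promoter peak.

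Lower glycolysis, where the triose phosphates become pyruvate, had 6 of 7 genes with a promoter peak. GAPDH, glyceraldehyde-3-phosphate dehydrogenase, had a peak of 5779 bp with a score of 3059 (chromosome 12, 6640962 to 6646740). PKM, the pyruvate kinase of most tissues and of tumours, scored 2601 (chromosome 15, 72520372 to 72525030). TPI1, triosephosphate isomerase, scored 1192 at its canonical TSS and 1809 in an adjoining peak that began near its 3′ end and reached start sites of SPSB2 and LRRC23. PGK1, phosphoglycerate kinase, scored 606. PGAM1, the phosphoglycerate mutase of most tissues, had a pair of narrow peaks near its start with scores of 173 and 139.6, shared with the start region of RRP12.

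The 2 enolases among the members repeated the aldolases in presence or absence of a promoter peak, but not in score. ENO1 stood at the 43.5th percentile of the scores of coding genes with a promoter peak, and ALDOA at the 99.9th. ENO1, the ubiquitous enolase, lay entirely under a single peak of 25073 bp with a score of 410.3 (chromosome 1, 8916125 to 8941197). ENO2, the neuronal enolase, had no peak (chromosome 12, 7022909 to 7032861, plus strand), although its promoter was CpG-rich with 67.7% GC. The nearest peak began 368 bp beyond its 3′ end, at ATN1, with a score of 320.4.

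All 3 genes that decide the fate of pyruvate had a promoter peak. LDHA, the lactate dehydrogenase subunit that favours lactate production, scored 2397 (chromosome 11, 18415083 to 18418569, 3487 bp), and its promoter is the first sequence printed above. PDK1, the kinase that shuts pyruvate dehydrogenase, scored 986 (chromosome 2, 173419567 to 173421839). LDHB, the subunit that favours lactate use, scored 794. LDHA stood at the 95.9th percentile of the scores of coding genes with a promoter peak and LDHB at the 71.1st.

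Of the 11 other hypoxia targets, 10 had a promoter peak, and 7 of these reached a score of 1000. DDIT4, an inhibitor of mTORC1 signalling also known as REDD1, had a score of 3100 in a peak of 5971 bp that covered the whole gene (chromosome 10, 74031791 to 74037761). VEGFA, the angiogenic growth factor, scored 2289 in a peak of 6336 bp (chromosome 6, 43736788 to 43743123). STC2, a secreted stanniocalcin, scored 1963, NDRG1, a stress-responsive metastasis-related gene, 1893, and P4HA1, a collagen prolyl hydroxylase subunit, 1853. ANKRD37 scored 1488 in a peak that reached the LRP2BP start, and ADM, the vasodilator peptide adrenomedullin, 1233. P4HA2, the other collagen hydroxylase subunit, scored 749.8 at a distant alternative start near SLC22A4 and 143.7 at the canonical TSS. The mitophagy receptor genes BNIP3L and BNIP3 scored 531 and 328, in promoter peaks of 1900 and 1886 bp.

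CA9, carbonic anhydrase IX, a widely used marker of tumour hypoxia, was the target without a peak (chromosome 9, 35673925 to 35681156, plus strand). Its TSS was 8117 bp from the nearest peak, and its promoter had a CpG observed-to-expected ratio of 0.139, the lowest of the 36. Of the 5 members without a promoter peak, SLC2A3, ALDOC and CA9 were CpG-poor, and PFKP and ENO2 were not.

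The share of the gene body under peaks was higher in members than in coding genes at large. The median was 6.60% over the 36 members (range 0 to 100%) and 1.28% over all coding genes. The members' median depended on weak and wide peaks: it was 4.15% with peaks of a score of at least 100, 3.78% with peaks at or above the median score and 3.99% without the widest 1% of peaks, against 0.829%, 0% and 1.19% in all coding genes. Between genes with a promoter peak, it was 9.40% in members and 4.85% in all. At least 50% of the body lay under peaks at 9 members (ALDOA, TPI1, GAPDH, ENO1, VEGFA, ADM, NDRG1, STC2 and DDIT4), against 6.50% of all coding genes. ENO1, STC2, ADM and DDIT4 were covered from end to end, ALDOA over 95.4%, TPI1 over 95.1% and GAPDH over 89.4%. At the other end, 12 of the 31 members with a promoter peak had under 5% covered, against 50.6% of all coding genes with one, with EGLN1 lowest at 0.904%.

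Gene length moved with this share. Across the 31 members with a promoter peak Spearman's rho between length and share was -0.79, close to the -0.81 of all 11722 such genes. DDIT4, ADM, TPI1, GAPDH and ALDOA measured between 2117 and 6294 bp. ENO1, STC2, VEGFA and NDRG1 were longer, at 18191, 13725, 16304 and 64848 bp, and lay under wide peaks or several of them. ENO1, STC2 and NDRG1 held promoter peaks from the widest 1% of the list (over 8786 bp), 3 of 36 members against 1.52% of coding genes. The NDRG1 gene had a peak of 17552 bp with a score of 1893 at its start and another of 29855 bp with a score of 82.2 towards its end. When the first 1 kb of each gene was set aside, the median share was 4.69% in members and 0% in all coding genes. Annotated gene bounds lowered some values and raised others. On the canonical transcript PGK1 had 5.69% in place of 1.21% and EGLN3 5.76% in place of 1.27%. By contrast, PFKFB3 had 7.17% in place of 11.4% and PFKM 2.16% in place of 6.37%. The median on the canonical transcript was 5.73% in members and 1.06% in all coding genes.

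**Figure D3:**
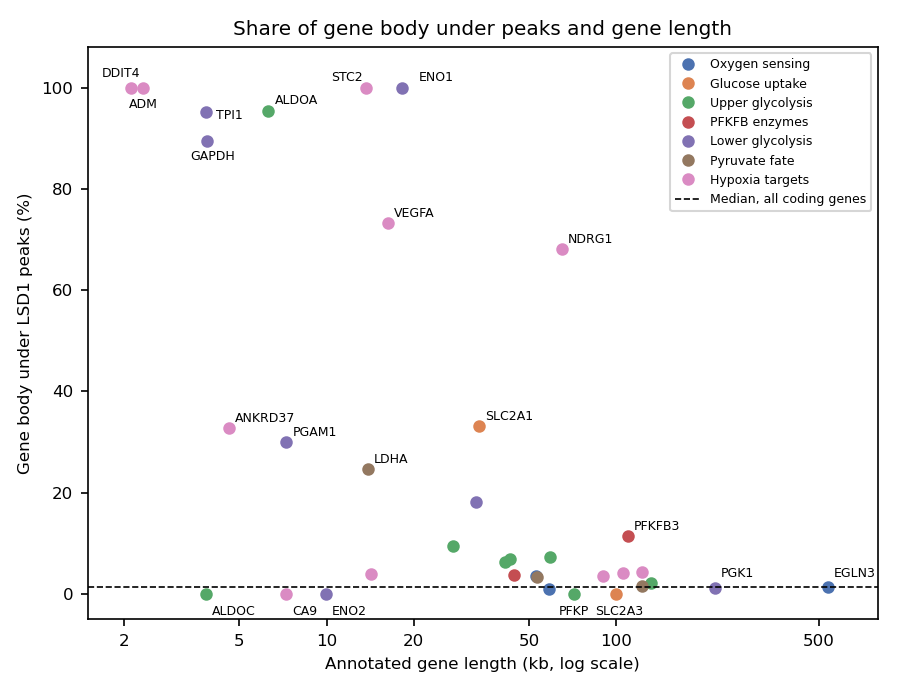
Share of each member's annotated gene body under LSD1 peaks (linear axis, %) against gene length (kb, log axis), 1 point per gene, coloured by role. The dashed line is the median of all coding genes, 1.28%. Short genes such as DDIT4, ADM and TPI1 and the longer ENO1, STC2, VEGFA and NDRG1 lie high, and 5 genes lie at 0.

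Several members had a separate peak at the other end of the gene. A peak that covered the last base of the canonical transcript, without coming within 1 kb of its TSS, was present at 11 of 36 members, against 11.5% of all coding genes. Among the 31 with a peak within 1 kb of the canonical TSS it was also 11, against 18.1% of such genes. These 11 were SLC2A1, HK2, PFKL, ALDOA, TPI1, GAPDH, PGAM1, PKM, LDHA, VEGFA and NDRG1. At SLC2A1, PFKL and TPI1 the peak at the 3′ end had a higher score than the one at the start, with 1162 against 865, 984 against 831 and 1809 against 1192. The 3′ peaks of TPI1 and PKM also reached start sites of other coding genes, and the other 9 did not. Those of ALDOA, TPI1 and NDRG1 came within 1 kb of an alternative start site of their own gene. The NDRG1 one was 29855 bp wide with a score of 82.2. At LDHA the 3′ peak scored 565 (chromosome 11, 18429015 to 18431029), at GAPDH 802 (chromosome 12, 6647149 to 6649570) and at PKM 418. This feature was looked for after the peaks had been seen.

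The letters of the hypoxia response core were frequent in these promoters. In the 300-base window, 33 of 36 members held ACGTG or GCGTG on either strand, against 56.3% of all promoters of that length, and 15 held 2 or more, against 28.7%. The stricter ACGTG occurred in 20 members, against 23.2%. The core contains CpG, and within CpG-rich promoters the counts were 28 of 30 for either core, against 68.0%, 17 of 30 for ACGTG, against 26.5%, and 14 of 30 for 2 or more cores, against 38.0%. All 5 members without a promoter peak held at least 1 core, among them CA9. The members without a core in this window were EGLN3, PFKM and TPI1, and all of them had a promoter peak. In the 1000 bases around the TSS, either core occurred in 35 of 36 members, against 86.5% of all coding genes. In the 300-base window the core did not separate members with a promoter peak from those without. Many members are known HIF targets, so they were not chosen without regard to this element.

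Other motifs were counted in the same window on both strands. The GC box GGGCGG occurred in 29 members, against 60.9% of all promoters, and the E-box CACGTG, which contains the core ACGTG, in 6, against 8.73%. The ETS element CCGGAAG occurred in 2, GPI and ANKRD37, against 14.0%. The AP-1 element TGAGTCA or TGACTCA occurred in 2, ENO2 and CA9, against 3.57%, and both of these lacked a promoter peak. A match marks letters in the reference and is neither a bound site nor a cause.

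Genes that belong to the same pathways but not to the 36 were examined by list. Of 14 other regulators of HIF, 12 had a promoter peak, and ARNT2 and HIF3A had none. The highest scores were at the elongin subunit gene ELOB (1953), the transactivation inhibitor gene CITED2 (1863) and the cullin partner gene RBX1 (1496). VHL, the substrate receptor that binds hydroxylated HIF1A, scored 955, and EPAS1, which encodes HIF-2α, 220.1. Of 23 other hypoxia-inducible genes, 22 had one, led by MIF (2889), FAM162A (2579) and BHLHE40 (1667). EPO, the erythropoietin gene of kidney and liver, was the exception.

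A promoter peak was less frequent in the lists of other isozymes and of gluconeogenesis, a difference that was not tested. CpG-rich promoters were also fewer, 7 of 21 in the isozyme list and 3 of 7 in gluconeogenesis, against 30 of 36 in members. Of these CpG-rich promoters, all 7 of the isozyme list and 2 of the 3 of gluconeogenesis had a peak. Of 21 other glycolytic isozymes and lactate transporters 12 had a promoter peak, close to the 58.2% of all coding genes. The highest scores, 3100 at ENO3 and at PDK2, belonged to peaks that reached start sites of PFN1 and RNF167 and of ITGA3, and PDK2 had 168 at its canonical TSS. SLC16A3, the hypoxia-inducible lactate exporter MCT4, had 2248 in a peak that reached a CSNK1D start, and 1823 at its canonical TSS. The 9 without a promoter peak included GAPDHS, the sperm isoform of GAPDH, although 41.0% of its body lay under peaks. Of 7 enzymes of gluconeogenesis, 3 had one (G6PC3, PC and PCK2) and FBP1, FBP2 and G6PC1 were among the 4 without. The median score of the bound genes was 606 in the isozyme list and 1037 in the 3 of gluconeogenesis, against 877 in the 31 bound members. The 1037 was the score of PC, in a peak that reached a start site of LRFN4, and PC had 131 at its canonical TSS.

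Presence of a promoter peak was not particular to glycolysis within glucose metabolism. All 7 enzymes of the pentose phosphate pathway had one, with TALDO1 at 2288 (316 at its canonical TSS) and PGLS at 1455 among the highest. All 22 genes of the pyruvate dehydrogenase complex and the citric acid cycle had one as well, with IDH3B at 1745 in a peak that reached the NOP56 start (794 at its canonical TSS) and SDHD at 1211 in a peak shared with the TIMM8B start among the highest. The median score of bound genes was 782 in the citric acid cycle list and 546 in the pentose phosphate list, against 877 in the members. A score of at least 1000 occurred in 5 of 22 and 3 of 7 of those genes, and in 13 of the 36 members. Of these lists, 20 of 22 and 7 of 7 promoters were CpG-rich. Differences between the lists were not tested.

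**Figure D4:**
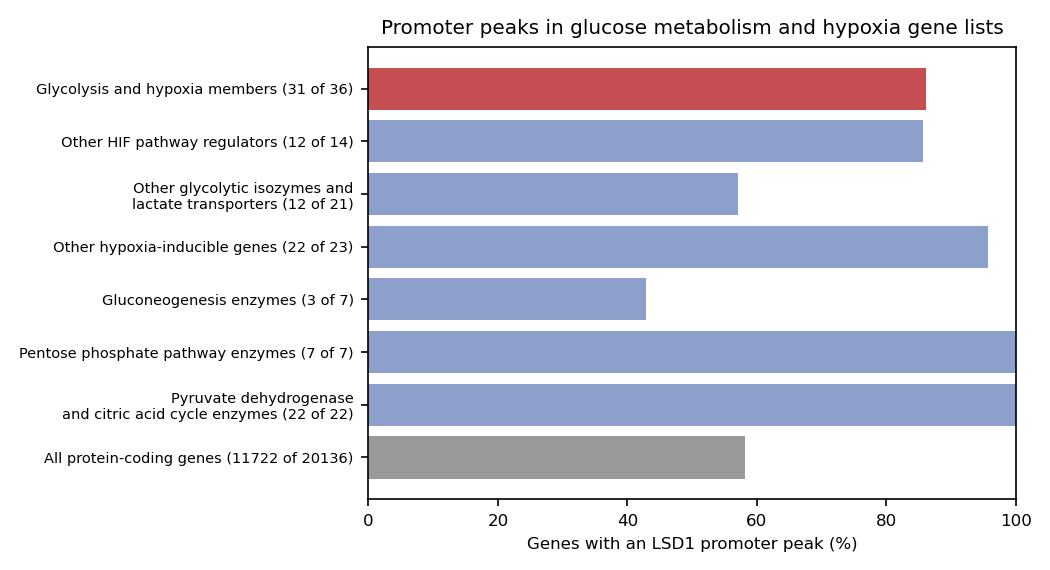
Share of genes with an LSD1 promoter peak (%, bars from 0) among the 36 members, the 6 other lists of glucose metabolism and hypoxia genes, and all protein-coding genes, with counts in the labels. The members (31 of 36) lie above all coding genes (11722 of 20136), as do the lists of HIF regulators, hypoxia-inducible genes, the pentose phosphate pathway and the citric acid cycle, while the gluconeogenesis list lies below.

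Some values rest on peaks that cannot be given to 1 gene. The highest-scoring promoter peak came within 1 kb of a start site of another coding gene at 7 of the 31 members (PFKM, TPI1, PGAM1, LDHB, ADM, ANKRD37 and P4HA2). The share over all coding genes is not given here, so this count only marks a limit of these values. GAPDH, PGK1, LDHA, ENO1 and others have processed pseudogenes, and the handling of reads that match several places is not stated in the labels.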

How the data were processed

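Per the labels' protocols, reads from an Illumina HiSeq were mapped by bowtie 2 to hg19. In the submitters' processing notes the tools are MACS 1.41 and Bowtie2, and a mouse build is listed beside hg19. Settings, the threshold, duplicate handling and read numbers are not given in the sources used here, and depth is unknown. The deposited list holds positions and 1 score per peak, which the authors did not define; it was read from its values as a multiple of the caller's negative log10 p, and used to rank and filter. That the input was the control is inferred from the sample labels.

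Genes and start sites of all transcripts came from GENCODE 44 mapped to GRCh37 (20136 protein-coding symbols, 146403 start sites). All 24 chromosome names matched and 0 peaks ran past a chromosome end. The canonical transcript was missing from the mapped annotation for 280 genes, DDIT4 among them, and the longest protein-coding transcript stood in. A promoter peak had at least 1 base within 1 kb of any TSS. Coordinates are 1-based. Genes were described by role: the 2 highest-scoring members of each and all without a peak, then up to 3 of each kind in other lists, with further genes named after their values were seen. Some genes of the other lists are counted but not reported here by name. The members and lists were chosen with earlier results of these data known. Printed promoters were 4 with a peak over the canonical TSS and the most cores, ties taken by score, chosen outside chromosome 8. Simulated peaks planted at 200 of 20136 genes were all called, and 500 of 500 planted cores were found. Alternatives changed the score minimum, window, overlap, TSS set, wide peaks, gene bounds, CpG limit and core. Tools were scipy 1.17.1, pandas 2.3.3, numpy 2.4.6 and matplotlib 3.10.9 under Python 3.11.15.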

Additional observations from a re-analysis of the deposited data

How the results depend on the processing

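No paired analysis was possible because both sides were a single library. Members with a promoter peak numbered 28 to 33 of 36 under the 9 alternatives. Counted by the midpoint of the peak, or without the widest 1% of peaks, they were 28, with ENO1 and STC2 lost in both, P4HA1 in the first and NDRG1 in the second. A window of 5 kb gave 33, adding ALDOC and ENO2. The share over all coding genes was 53.7% with a score of at least 100, 46.0% at or above the median score, 57.3% without the widest 1%, 61.2% with 5 kb, 54.7% by midpoint, 55.1% with the canonical TSS and 56.4% with protein-coding transcripts. The members' median body share was 3.78 to 4.15% when weaker or the widest peaks were left out, in place of 6.60%. With ACGTG as the core, 20 members held it in place of 33, and 35 held either core in 1000 bases. SLC2A3, PFKP and CA9 had no promoter peak under any of these alternatives. Unknown depth limits what a missing peak means.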

Other observations

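Peaks outside all protein-coding gene bodies were also assigned to the coding gene with the nearest start site, when over 1 kb from it. Overlap with non-coding genes was not checked. At least 1 such peak fell to 11 of 36 members, against 11.0% of all coding genes. The highest score, 1260, belonged to a peak of 2324 bp downstream of DDIT4 (chromosome 10, 74056457 to 74058780), 22680 bp from the nearest DDIT4 start site and the last of 3 adjacent peaks, the others scoring 216 and 54.4. A peak with a score of 790.1 lay just beyond the 3′ end of HIF1A (chromosome 14, 62216373 to 62218495), close to the 797 of the HIF1A promoter. VEGFA had 3 such peaks, with scores of 90.0, 151 and 198, the furthest 147770 bp away. Within gene bodies, PFKFB3 had 7 peaks besides the one at its canonical TSS, with scores from 50.03 to 432, and BNIP3L had a pair of intronic peaks of an extended transcript, at 588 and 169, of which the first exceeded the 531 of the BNIP3L promoter. This count was made after the peaks had been seen, and assignment to the nearest start site does not show which gene a site acts on.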
